A study of Arabidopsis thaliana with 12 samples.

Results

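Transcripts of 4 nuclear genes for the chloroplast NADH dehydrogenase-like (NDH) complex and its cofactors, NdhN (AT5G58260), NdhS (AT4G23890), CRR41 (AT1G51100) and PIFI (AT3G15840), were followed in Arabidopsis thaliana. The psao mutant, without the photosystem I protein PSI-O, was set against wild type (WT). Both were of ecotype Columbia 0, and each was measured on 6 arrays of total RNA. The sources used here do not give the psao allele, tissue, age or growth conditions, nor whether arrays came from separate plants, so the spread between arrays may be technical. The members were all probes that the platform annotation pairs with exactly 1 gene, that gene being one of these loci. This gave 1 probe for each locus, 4 of 3439 probes in all. The loci were chosen by name with the psao and WT differences of these same arrays in view, so the differences below are descriptions, and no p is given for them.

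The NDH complex sits in the thylakoid membrane, accepts electrons from reduced ferredoxin and passes them to plastoquinone. It returns electrons around photosystem I in the light and feeds the plastoquinone pool in the dark, a process called chlororespiration. In flowering plants it binds photosystem I through linker proteins of the light-harvesting complex. Its subunits are encoded partly in the plastid genome and partly in the nucleus, and a set of nuclear factors assembles it. Its activity is commonly read from a brief rise of chlorophyll fluorescence after the light is turned off.

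The brightest probe of each array stood at 100, and all intensities are relative to it. Median intensities lay between 0.198 and 0.273 on psao arrays and between 0.0970 and 0.195 on WT arrays, so levels were compared after quantile normalization, on the log2 scale. Zeros made up 4.22% to 7.33% of probes on psao arrays and 4.68% to 15.1% on WT arrays, with WT arrays 1 and 2 at the top of that range. In each genotype array 1 was most like array 2, array 3 like array 4 and array 5 like array 6, and these are called couples, a term the labels do not use. The members had a signal on all 12 arrays, so none of their values was left out. No probe was paired with PSAO alone, so the mutant's own transcript was not analysed here.

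NdhS and CRR41 were higher in psao, PIFI was lower, and NdhN was lower on average with a wide spread in psao. The log2 differences, psao minus WT, were 1.09 for NdhS, 1.55 for CRR41, -1.62 for PIFI and -1.36 for NdhN. In limma with all arrays taken as independent, 3 of the 4 members passed an adjusted threshold of 0.05 and NdhN did not. Of the 3187 tested probes 29.8% passed in either direction, and of those with 1 gene 28.0% did. Among the 3 members, 2 passed as higher in psao, where 14.8% of tested probes did, and 1 passed as lower, where 15.0% did. This fit did not model the couples, and it gave the SE printed for each member unless another fit is named. Since the grouping used this contrast, nothing is read from these counts. The median of the 4 differences was -0.14, and that of all tested probes was -0.04.

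**Figure D1:**
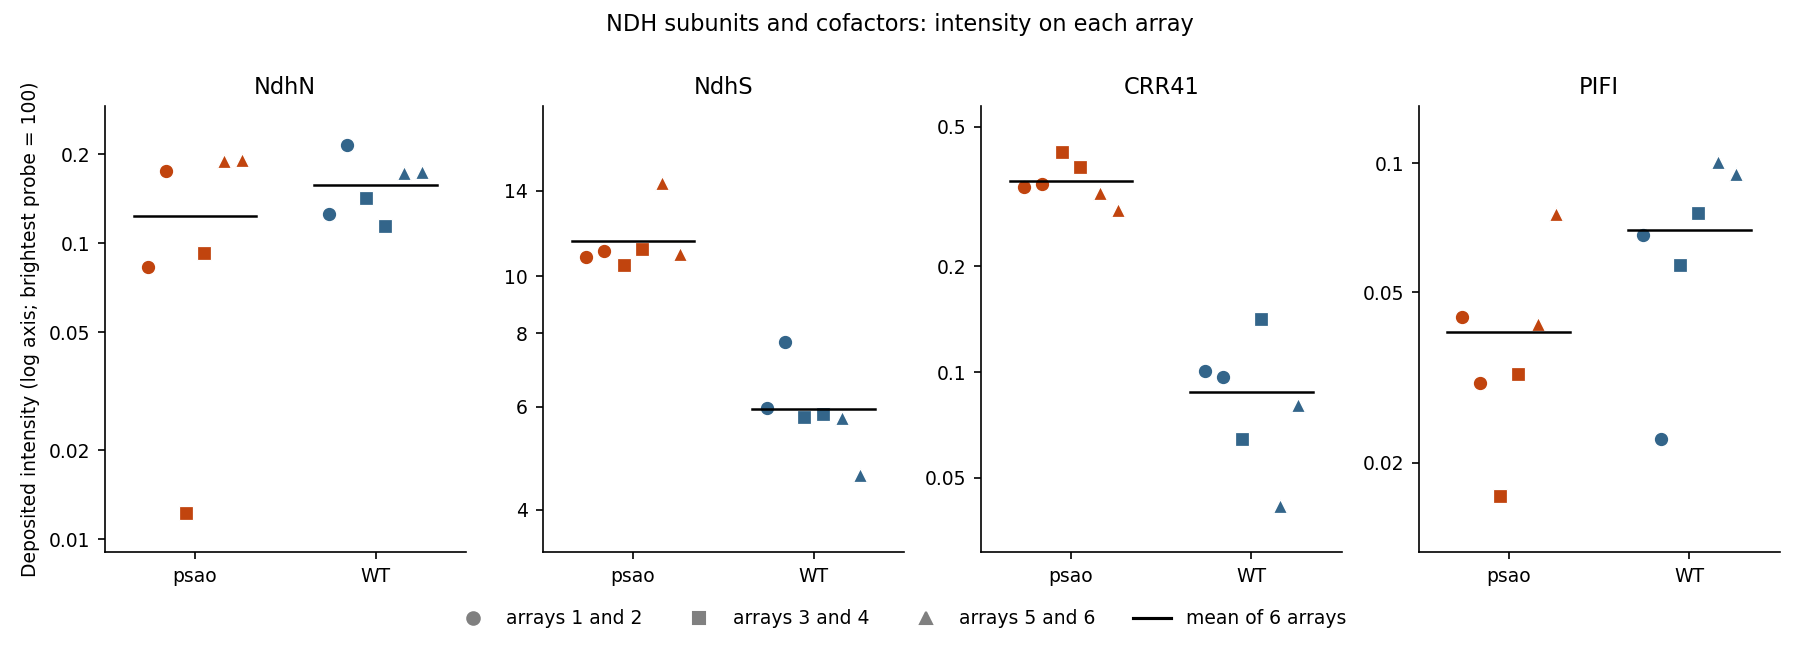
Deposited intensity of NdhN, NdhS, CRR41 and PIFI on each of 6 psao and 6 WT arrays, on a log axis where the brightest probe of an array is 100. Symbols mark couples of arrays and black lines the mean. NdhS and CRR41 lie higher on every psao array than on any WT array, while NdhN and PIFI overlap.

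NdhN and NdhS encode nuclear subunits of the stroma-exposed arm of the complex. NdhN belongs to the part of that arm that is built in the stroma before it joins the membrane. Its deposited intensities were 0.0829, 0.175, 0.0122, 0.0930, 0.190 and 0.191 on psao arrays 1 to 6, against 0.126, 0.215, 0.143, 0.115, 0.173 and 0.175 on WT arrays 1 to 6. The groups overlapped, and psao array 3 was far lower than the other 11 arrays.

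After normalization NdhN averaged -3.80 ± 1.42 log2 units in psao and -2.44 ± 0.43 in WT (SD, n = 6 each). The difference was -1.36 ± 0.56 (SE), a 2.57-fold lower signal in psao. The WT mean was higher than each of the 6 psao arrays after normalization. Without psao replicate 3 the difference was -0.83, with array weights -0.77, and as deposited -0.75. The couples of arrays differed widely: arrays 1 and 2 gave -1.70, the next couple -2.11, and arrays 5 and 6 only -0.27. Arrays 5 and 6 of psao differed by 0.03 log2 units from each other, whereas psao arrays 3 and 4 differed by 3.02. On deposited values the couples gave -0.45, -1.92 and 0.13, in order. There NdhN was lower in psao in 4 of 6 same-numbered arrays and higher in arrays 5 and 6.

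NdhS, also known as CRR31, forms the part of the complex that binds ferredoxin. It gave a bright signal, with intensities of 10.8, 11.0, 10.5, 11.1, 14.4 and 10.9 on psao arrays 1 to 6, against 5.97, 7.73, 5.76, 5.84, 5.73 and 4.58 on WT arrays 1 to 6. Every psao array was above every WT array. Its deposited intensity averaged 11.5 ± 1.47 in psao and 5.93 ± 1.01 in WT (SD, n = 6 each).

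On the normalized log2 scale NdhS averaged 3.57 ± 0.20 in psao and 2.49 ± 0.20 in WT (SD, n = 6 each), a difference of 1.09 ± 0.16 (SE), or 2.13-fold. It was the steadiest of the 4 members: its pooled SD within a genotype, 0.20 log2 units, was at or above that of only 3.67% of tested probes. The couples gave 0.86, 1.02 and 1.39, in order. As deposited the difference of NdhS was 0.96, and with cyclic loess normalization it was 1.01, and both passed. With each array centred on its median alone, it was 0.43 and did not pass.

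CRR41 is a stromal factor that helps to assemble the arm of the complex to which NdhN belongs, and is not itself a subunit. Its intensities were 0.336, 0.343, 0.423, 0.385, 0.324 and 0.289 on psao arrays 1 to 6, against 0.1004, 0.0967, 0.0645, 0.142, 0.0415 and 0.0806 on WT arrays 1 to 6. The lowest psao array was above the highest WT array, WT array 4.

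CRR41 averaged -1.75 ± 0.38 log2 units in psao and -3.29 ± 0.77 in WT (SD, n = 6 each). The difference was 1.55 ± 0.34 (SE), a 2.92-fold higher signal in psao. The couples gave 0.58, 1.98 and 2.08, the first being the smallest. As deposited, the same couples gave 1.79, 2.08 and 2.41, and the difference over all arrays was 2.09. Without arrays 3 and 4 of both genotypes the normalized difference was 1.32 and did not pass. The WT signal of CRR41 was dim, at a mean percentile of 34.4 ± 15.1 within its array, where the psao signal was at 62.3 ± 6.87 (SD, n = 6 each; zeros rank lowest).

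PIFI is a chloroplast protein needed for the rise of chlorophyll fluorescence after illumination, and it is tied to NDH-dependent chlororespiration. Its intensities were 0.0439, 0.0307, 0.0167, 0.0322, 0.0422 and 0.0763 on psao arrays 1 to 6, against 0.0681, 0.0227, 0.0579, 0.0765, 0.101 and 0.0944 on WT arrays 1 to 6. The groups overlapped on this scale, since WT array 2 was lower than 5 of the 6 psao arrays.

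Normalized levels of PIFI averaged -5.21 ± 0.65 in psao and -3.59 ± 0.50 in WT (SD, n = 6 each), and the difference was -1.62 ± 0.32 (SE), a 3.07-fold lower signal. It was -1.82, -1.71 and -1.32 in the couples in order. As deposited it was -0.10, -1.52 and -0.78, and over all arrays the deposited difference was -0.80 and did not pass. Within its array PIFI ranked at a mean percentile of 11.9 ± 2.83 in psao and 29.1 ± 7.005 in WT (SD, n = 6 each), without overlap. PIFI on psao arrays therefore lay not far above the zeros, and its fold rests on a dim signal. WT array 2, at an intensity of 0.0227, ranked at percentile 24.5, above every psao array. That array had a median intensity of 0.0970 and 15.1% zeros, so ranks and deposited intensities differ there.

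**Figure D2:**
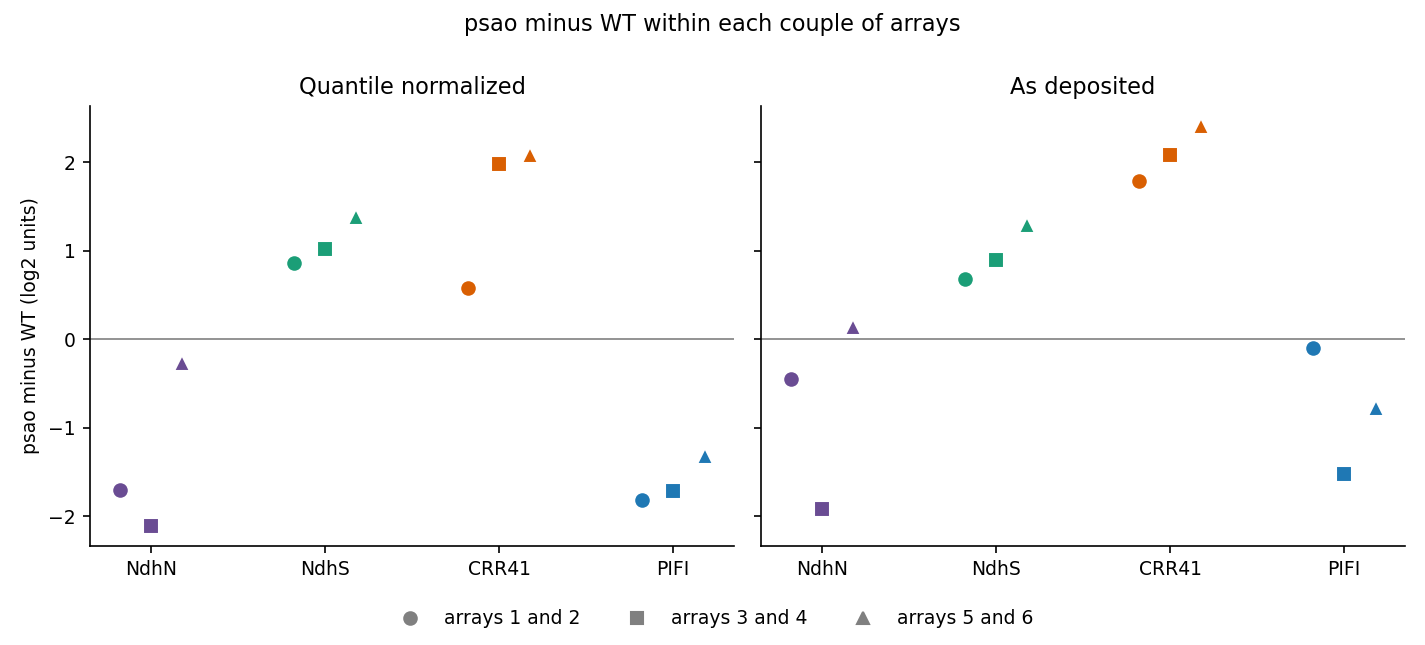
Difference of couple means, psao minus WT in log2 units, for NdhN, NdhS, CRR41 and PIFI, with quantile-normalized values on the left and values as deposited on the right. Each symbol is a couple of 2 psao and 2 WT arrays. NdhS and CRR41 lie above 0 in all couples on both scales, and NdhN stands at -0.27 and 0.13 in arrays 5 and 6.

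The members differed in how they separated the genotypes. Normalized levels of 2 members, NdhS and CRR41, did not overlap between psao and WT, where 19.7% of tested probes did not. On deposited intensities these 2 were again the members without overlap, against 20.6% of tested probes. Ranked within each array, 3 members did not overlap, PIFI being the third, against 19.1% of tested probes. By size, the absolute differences of NdhS, NdhN, CRR41 and PIFI were at or above those of 77.2%, 86.4%, 89.8% and 91.2% of tested probes. With same-numbered arrays set against each other after normalization, NdhS and CRR41 were higher in psao in 6 of 6 arrays, which their lack of overlap already fixes. NdhN and PIFI were lower in 6 of 6. As deposited, PIFI was lower in 5 and higher in 1, and NdhN was lower in 4 and higher in 2. The share of all tested probes with such counts was not taken.

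As deposited, the median probe was 0.43 log2 units higher in psao. Of the members, 2 passed on that scale, NdhS and CRR41, where 30.9% of tested probes did. Relative to the shift of the median the deposited differences were 0.53 for NdhS, 1.66 for CRR41, -1.23 for PIFI and -1.18 for NdhN. The 4 members kept their directions under every alternative run, though several alternatives could not change a member's difference. With each couple averaged, 3 values against 3, 0 of the 4 members passed in limma, where 57 of 3187 probes (1.79%) did. With couples as a random block 1 member passed, NdhS, where 330 probes (10.4%) did. The correlation within couples was estimated at 0.70 in that fit. The SE there was 1.01 for NdhN, 0.25 for NdhS, 0.51 for CRR41 and 0.62 for PIFI, larger than in the main fit.

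**Figure D3:**
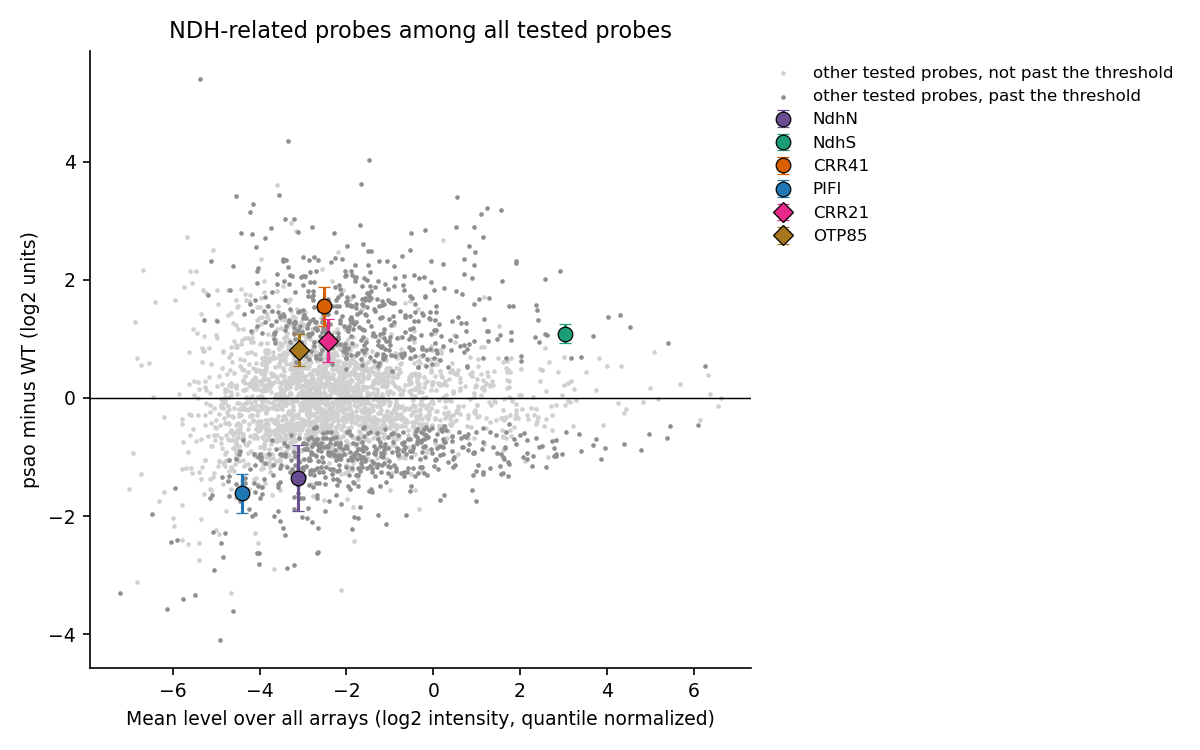
Difference, psao minus WT in log2 units, against the mean normalized level over all 12 arrays for 3187 tested probes (grey, darker where the adjusted p was under 0.05). Circles are the 4 members and diamonds CRR21 and OTP85, with bars for the standard error. NdhS stands among the bright probes and PIFI lies below 0 among the dim ones. NdhN also lies below 0, at a brighter mean level than PIFI.

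Of 51 loci in 6 lists of NDH and related functions, 6 had a probe of their own: the 4 members and 2 pentatricopeptide repeat proteins. The 2 were from a list of 8 RNA-binding factors that act on plastid ndh transcripts. With the members, 2 of 13 subunits of the stromal arms and 2 of 8 assembly factors and cofactors had one. It was found for none of 7 subunits of the lumen arm and linkers, 9 genes of the PGR5 route, ferredoxin and chlororespiration, or 6 of state transitions and photosystem I docking. Of 9 seed, root and green tissue markers 0 had a probe of their own, so the tissue could not be checked. The annotation does not list 1877 of the probes, which stay unnamed, so loci without a named probe were not analysed here.

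CRR21 and OTP85 are each needed for RNA editing of the plastid transcript ndhD, which encodes a membrane subunit of the complex. The list that holds both was chosen with earlier results of these data known. Their adjusted p values and counts of passing settings are therefore descriptions, not independent tests. CRR21 had intensities of 0.356, 0.316, 0.296, 0.201, 0.349 and 0.348 on psao arrays 1 to 6, against 0.0618, 0.0661, 0.255, 0.275, 0.0546 and 0.0948 on WT arrays 1 to 6. WT arrays 3 and 4 reached the psao range and the other 4 WT arrays did not. Normalized levels averaged -1.93 ± 0.27 in psao and -2.90 ± 0.89 in WT (SD, n = 6 each). The difference of 0.97 ± 0.36 (SE) did not pass (limma adjusted p = 0.0604, and 0.0108 to 0.427 over 26 alternatives, of which 5 passed). It was 1.08, -0.19 and 1.999 in the couples in order. CRR21 passed without WT replicate 3 (limma adjusted p = 0.0259) and without WT replicate 4 (adjusted p = 0.0226).

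OTP85 had intensities of 0.226, 0.199, 0.166, 0.147, 0.163 and 0.252 on psao arrays 1 to 6. On WT arrays 1 to 6 they were 0, 0.0338, 0.116, 0.126, 0.0504 and 0.0711, and the zero of WT array 1 was left out of the fit. Every psao array was above every WT array as deposited, while normalized levels overlapped. OTP85 averaged -2.72 ± 0.26 (SD, n = 6) in psao and -3.53 ± 0.60 (SD, n = 5) in WT. The difference of 0.81 ± 0.27 log2 units (SE) passed with all arrays taken as independent (limma adjusted p = 0.0437). It did not pass with couples as a random block (limma adjusted p = 0.188) or averaged (adjusted p = 0.210). Blocking on the array number gave a limma adjusted p of 0.0552. Over 25 alternatives it ranged from 0.0107 to 0.318, and 8 passed. When 1 array was left out, OTP85 passed in 3 of 12 cases, those without WT replicate 1, 3 or 4. It did not pass without any one psao array or without WT replicate 2, 5 or 6, where the difference was between 0.64 and 0.88.

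**Figure D4:**
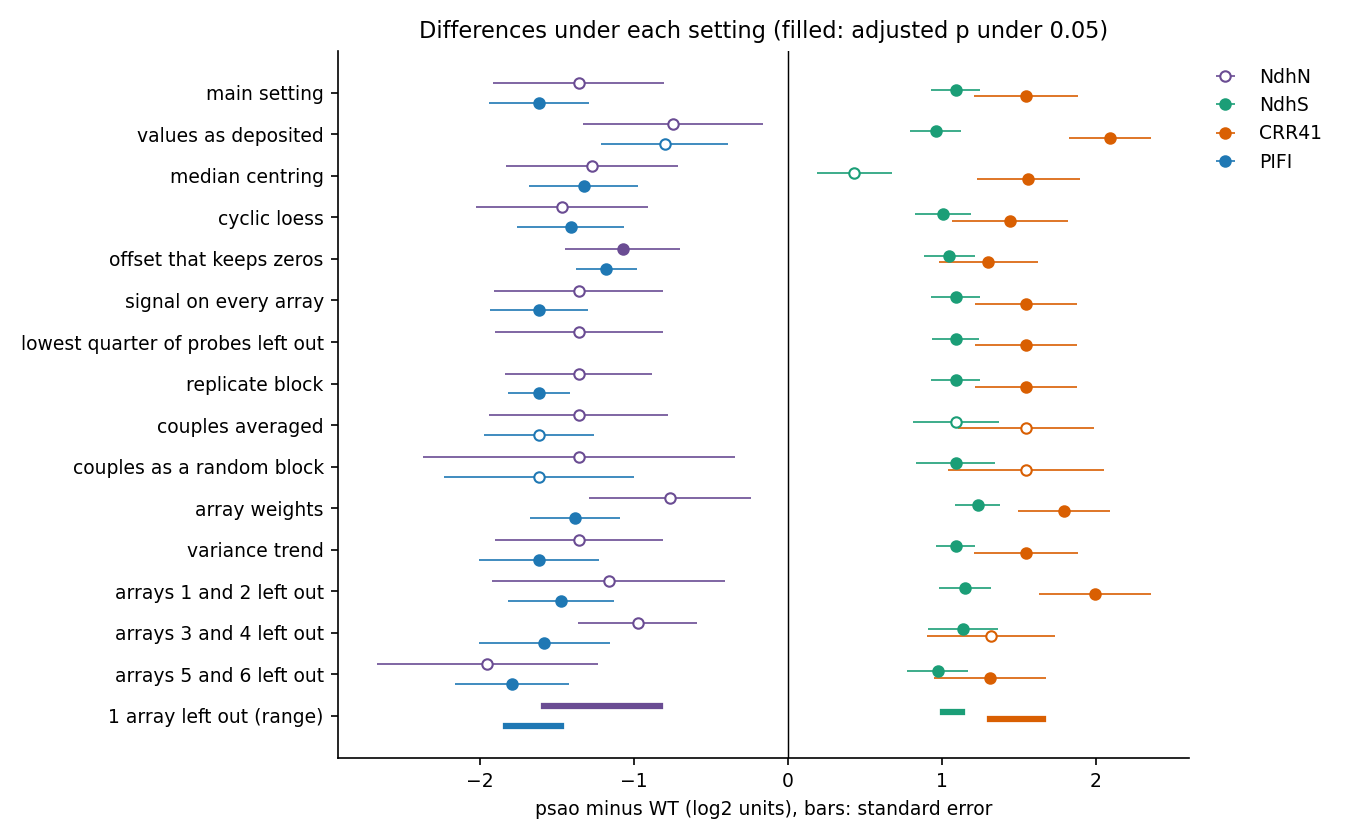
Difference, psao minus WT in log2 units with its standard error, for the 4 members under the main setting and each alternative, filled where the limma adjusted p was under 0.05. The lowest row gives the range when 1 of 12 arrays was left out. Each member stays on its side of 0, and NdhS is nearest to it at 0.43 under median centring.

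Among 608 other probes with 1 gene and enough shared arrays, the 3 with the pattern most like each member over the arrays were found by Pearson's r of normalized levels. This r counts the psao and WT shift and the couples, and is a description. For NdhS they were AT4G24750 (r = 0.955 over 12 arrays), AT5G46560 (0.953 over 11) and AT3G57440 (0.945 over 12). For PIFI they were AT2G19280 (r = 0.914), AT4G20690 (0.890) and AT4G14050 (0.880), each over 12 arrays. For NdhN they were AT3G29185 (r = 0.851 over 11 arrays), AT1G65500 (0.805 over 10) and AT5G19940 (0.803 over 12). For CRR41 they were AT2G30100 (r = 0.823 over 12 arrays), AT3G19120 (0.820 over 12) and PRA1.B6, a prenylated RAB acceptor (0.814 over 10). The differences of these probes ranged from 0.75 to 2.78 log2 units beside NdhS and from 1.83 to 2.37 beside CRR41. They ranged from -1.13 to -0.50 beside PIFI and from -0.999 to -0.46 beside NdhN.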

How the data were processed

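The deposited table held 1 intensity per probe and array, never negative and scaled within each array to a brightest probe of 100. The sources used here do not say how the authors made these intensities. Of 3439 probes, the platform annotation listed 1562, with 692 paired with 1 gene, and 691 of these matched RefSeq (TAIR10.1). No genome build was named, so no coordinates are printed.

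Zeros were set missing, and log2 intensities were quantile normalized, because array medians ranged over 1.15 log2 units. Probes with at least 4 values in each genotype were tested, 3187 in all, with lmFit and eBayes of limma 3.58.1 in R 4.3.3, two-sided, with Benjamini-Hochberg adjustment over all of them. The fit was tested on simulated data. Groups and array numbers came from the sample titles. Deviations of same-numbered psao and WT arrays correlated with r from 0.144 to 0.239. Differently numbered psao and WT arrays were not set beside these, so pairing by number is not established. The main fit took arrays as unpaired, and the array number was a block only in an alternative. All 4 members, every listed locus with a probe of its own, and the 3 probes most like each member are named. Members, lists and alternatives were chosen with earlier results of these data known.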

Additional observations from a re-analysis of the deposited data

Results flagged for a closer look

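NdhS on psao replicate 5 stood at 3.97 log2 units after normalization, apart from the nearest other psao array at 3.62. Such far arrays were looked for in 12 sets of values, and by chance alone about 1 set in 20 holds such an array. Leaving out 1 array at a time, the difference of NdhS ranged from 1.01 to 1.13.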

How the results depend on the processing

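Each of the 4 members kept its direction in all of its 25 or 26 alternatives. Several of these could not change it. The members had a signal on every array and the groups were of equal size. Settings that changed only the probe filter, the blocks or the variance model therefore returned the same difference. The differences ranged from -1.95 to -0.75 for NdhN, 0.43 to 1.23 for NdhS, 1.30 to 2.09 for CRR41 and -1.83 to -0.80 for PIFI. With 1 array left out they ranged from -1.59 to -0.83, 1.01 to 1.13, 1.31 to 1.66 and -1.83 to -1.48 in the same order. In each of the 12 cases 3 members passed, where 786 to 939 probes did, or 25.1% to 29.8% of those tested. NdhS moved to 0.43 under median centring and PIFI to -0.80 as deposited. The cause was not tested. With couples averaged 57 probes (1.79%) and 0 members passed, and with couples as a random block 330 (10.4%) and 1. Array weights gave 1427 probes (44.8%), leaving out arrays 3 and 4 gave 602 (20.1%), and leaving out arrays 5 and 6 gave 431 (14.5%), against 949 (29.8%). Without arrays 3 and 4 CRR41 did not pass (difference 1.32), and NdhN passed only with an offset that keeps zeros (-1.07). With the array number as a block (replicate block) 1090 probes (34.2%) and the same 3 members passed. The differences of the 4 members could not change in that fit. Of called probes 77.4% were higher in psao as deposited, against 49.7% after quantile normalization. PIFI has no value with a filter on dim probes, which removed it. The number of arrays limits precision, and the background level is unknown.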
